A study of Homo sapiens and Mus musculus with 4 samples.

Results

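Transcripts of 8 cathepsins and legumain were examined in 4 lymphocyte cell lines. They comprised 9 human genes (CTSS, CTSL, CTSB, CTSC, CTSH, CTSZ, CTSW, CTSD and LGMN) of 32738 in the table, and the 9 mouse genes of the same symbols of 27998. The genes were chosen from measured levels of these same libraries, so their levels and ratios are given as a description, with no test. Human genes were read in the human lines and mouse genes in the mouse lines. The libraries served the study as bulk references for a benchmark of single-cell RNA sequencing methods on a defined lymphocyte mixture. Jurkat, from a human T-cell leukaemia, stood for CD4 T cells. TALL104 came from a T-cell leukaemia with CD8-type cells and was kept in medium with interleukin-2, a T-cell growth factor that the methods name for no other line. The mouse lines were the T lymphoma EL4 and the B-lineage hybridoma IVA12, a fusion of an antibody-forming B cell with a myeloma cell. No genotype or further treatment was given for any line, and there was 1 library per line, so the spread between cultures was not measured.

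Cathepsins are proteases of the endosome and lysosome. Most are papain-like cysteine proteases, whereas cathepsin D is an aspartic protease, and legumain is a cysteine protease of another family that cuts after asparagine. They are made as inactive precursors, mostly carried to the lysosome by mannose 6-phosphate tags and activated by cleavage at low pH. The papain-like cathepsins and in part legumain are held in check by cystatins. In lymphocytes, members of the set are known for the stepwise trimming of the class II invariant chain in B cells. Another known role is the activation of granule serine proteases in cytotoxic T cells.

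Levels are in FPKM, in which the reads of a gene are divided by its length and by the depth of its library. Comparisons between genes thus rest on the lengths used, here recovered as 11421 bases for CTSC and 1719 for CTSW. Whole reads could be recovered for every gene, with library totals of 25286728 to 34783047 reads. For every human member, and for Ctsb, Ctsd, Ctsl and Ctsw, the recovered length differed from the annotated exon length. The reads of these genes may thus be too low by a common factor. Intervals in parentheses are exact 95% Poisson intervals of the recovered reads. They cover counting error only, because reads are not independent molecules and cultures were not repeated. In bulk RNA, fewer cells with a transcript and less transcript per cell cannot be told apart. The markers of the labelled types were present in part. The T-cell gene CD3E (Cd3e in mouse) stood at 166 FPKM in Jurkat, 233 in TALL104 and 63.6 in EL4, with 0.0275 in IVA12. In IVA12, Jchain stood at 1289 FPKM and Mzb1 at 499, both known from antibody-secreting cells, whereas the B-cell receptor gene Cd79a had 2 reads. Genes listed at 0 are named as such with no fold, since Hexa, a lysosomal enzyme gene that most cells use, was also listed at 0 in both mouse libraries.

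Promoter sequences are shown for 3 human genes, because they bear letters linked to lysosomal genes or tie together a close pair of cathepsins. RefSeq sequences (GRCh38.p14) covered 5 of the 9 human members, and CTSS, CTSB, CTSW and LGMN were not among them. Each sequence is the 250 bases upstream of the annotated start, written 5′ to 3′ on the gene's strand. In CTSD (chr11:1763928-1764177, minus strand) the capitals mark CACGTG, the core of the site known to be bound by the MiT/TFE regulators of lysosomal genes. In CTSL (chr9:87725869-87726118, plus strand) and CTSV (chr9:97039143-97039392, minus strand) the capitals mark a run of 23 bases that holds CCAAT.
CTSD upstream: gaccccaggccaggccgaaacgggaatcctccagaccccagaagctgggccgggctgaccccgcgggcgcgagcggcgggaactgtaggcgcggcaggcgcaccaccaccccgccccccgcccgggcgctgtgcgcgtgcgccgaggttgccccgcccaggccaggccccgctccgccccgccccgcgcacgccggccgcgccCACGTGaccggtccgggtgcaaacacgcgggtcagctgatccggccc
CTSL upstream: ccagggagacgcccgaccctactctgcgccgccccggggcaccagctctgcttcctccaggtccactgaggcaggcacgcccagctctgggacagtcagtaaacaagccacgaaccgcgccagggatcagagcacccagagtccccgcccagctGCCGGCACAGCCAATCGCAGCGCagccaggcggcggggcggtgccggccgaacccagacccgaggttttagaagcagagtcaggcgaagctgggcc
CTSV upstream: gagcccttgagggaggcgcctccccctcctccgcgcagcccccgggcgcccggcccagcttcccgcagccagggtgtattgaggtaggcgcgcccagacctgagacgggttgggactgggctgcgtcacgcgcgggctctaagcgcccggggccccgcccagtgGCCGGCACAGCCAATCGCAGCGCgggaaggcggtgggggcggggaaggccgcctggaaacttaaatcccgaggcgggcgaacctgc
CACGTG, which reads the same on both strands, lay in 1 of the 5 member promoters, that of CTSD, 47 bases before the start. The same letters lay in 6.34% of all 35116 promoters of this length and in 5 of 15 promoters of the list of lysosomal genes (NEU1, CD63, LAMP1, GAA and MCOLN1). The longer palindrome TCACGTGA lay in 0.854% of all promoters, in 0 of the 5 member promoters and in 3 of the 15 (LAMP1, GAA and MCOLN1). CCAAT, searched on both strands, lay in 32.0% of all promoters and in those of CTSL and CTSC, and in 4 of the 15 lysosomal promoters (NEU1, NPC2, GRN and GLA). The shared run of 23 bases was found in 2 promoters of the whole set, those of CTSL and CTSV, where it began 96 and 86 bases before the start. These matches describe letters and not bound sites.

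Summed over the 9 genes, the human lines had 60.2 FPKM (Jurkat) and 297 FPKM (TALL104), and the mouse lines 131.6 FPKM (EL4) and 884 FPKM (IVA12). The sum was 4.94-fold higher in TALL104 than in Jurkat and 6.72-fold higher in IVA12 than in EL4. As a share of all own-species FPKM the members took 0.0237% (Jurkat), 0.118% (TALL104), 0.0409% (EL4) and 0.274% (IVA12). The line with the higher sum of these 9 genes was thus the CD8-type T line in human and the B hybridoma in mouse. The sum of the 7 other human cathepsins went the other way, at 60.2 FPKM in Jurkat and 30.8 FPKM in TALL104. Of the Jurkat sum, 42.9 FPKM came from the serine protease gene CTSG. By FPKM + 1, 2 of the 7 were over 1.5-fold higher in Jurkat and 2 in TALL104. The 14 other mouse cathepsins summed to 5.79 (EL4) and 129 FPKM (IVA12). At least 1 FPKM was reached by 5 of the 9 members in Jurkat and 4 in EL4, and by 7 in each of TALL104 and IVA12.

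The composition differed between the lines as well. Shares and orders of the members rest on the gene lengths behind the FPKM. By reads, CTSC (4820 in Jurkat, 15138 in TALL104) stood above CTSW (967 and 5832). CTSW led in both human lines, with 26.9% of the member FPKM in Jurkat and 40.3% in TALL104, and its mouse counterpart held 0.403% in EL4 and 0.0654% in IVA12. In EL4 Ctsd alone held 50.3%. In IVA12 Ctsz held 35.3%, Ctss 24.6% and Lgmn 14.3%, and Ctsd 13.0%. In Jurkat the order by level was CTSW, CTSD, CTSC, CTSB, LGMN, CTSH, CTSS, CTSZ and CTSL, and counting intervals overlapped between CTSW and CTSD, between CTSS and CTSZ and between CTSZ and CTSL. In TALL104 the first 4 came in the same order, followed by CTSS, CTSH, CTSZ, CTSL and LGMN, with overlaps between CTSH and CTSZ and between CTSL and LGMN. In EL4 the order was Ctsd, Ctsz, Ctsb, Ctsl, Lgmn, Ctsw and Ctss, with Ctsh and Ctsc listed at 0. The intervals of Lgmn and Ctsw overlapped, as did those of Ctss, Ctsh and Ctsc. In IVA12 no neighbours overlapped in the order Ctsz, Ctss, Lgmn, Ctsd, Ctsl, Ctsb, Ctsc, Ctsw and Ctsh.

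**Figure D1:**
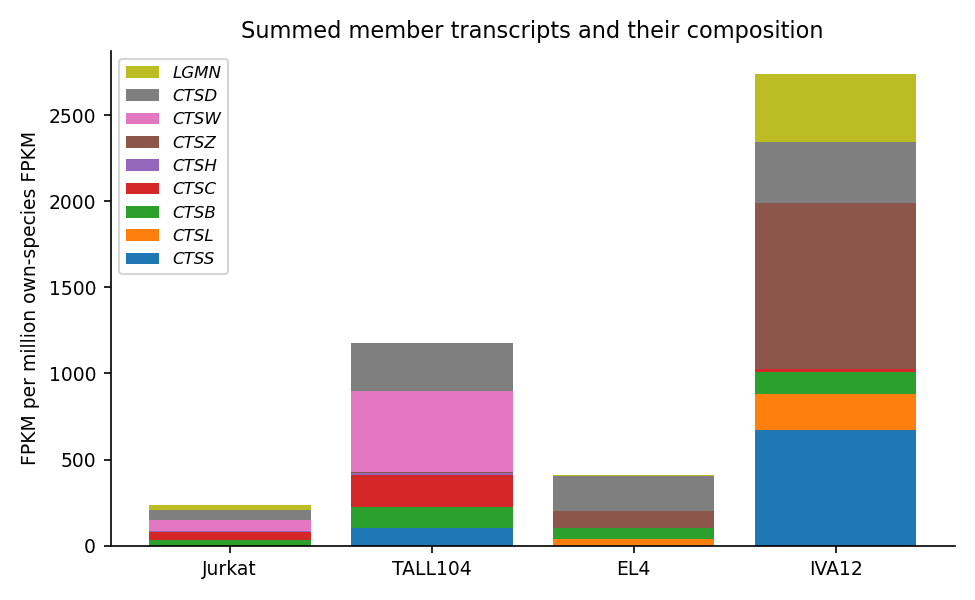
Stacked levels of each cathepsin and of legumain in each of the 4 libraries, scaled to the total own-species FPKM of the library. The whole stacks stand for 0.0237% (Jurkat), 0.118% (TALL104), 0.0409% (EL4) and 0.274% (IVA12) of that total. Within the stack, CTSW is the largest part in Jurkat (26.9% of the member FPKM) and TALL104 (40.3%), Ctsd in EL4 (50.3%) and Ctsz in IVA12 (35.3%).

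The question of how the lines of a species differ was put to each member as log2 of the ratio of FPKM + 1, with a member counted as different past 1.5-fold. In the human pair 7 of 9 members were higher in TALL104, where 11.4% of all human genes passed in that direction. LGMN alone of the 9 was higher in Jurkat, where 13.8% of all genes passed. CTSL passed in neither direction. Among genes with at least 1 FPKM in either line, 28.4% passed toward TALL104 and 34.2% toward Jurkat, and 8 of the 9 members belonged to these. In the mouse pair 7 of 9 members were higher in IVA12, where 11.2% of all mouse genes passed (26.5% of genes with at least 1 FPKM in either line). None was higher in EL4, where 9.75% passed (23.8% of genes with at least 1 FPKM in either line), and Ctsh and Ctsw passed in neither direction. The median log2 ratio of the members was -1.77 for Jurkat over TALL104 and -2.35 for EL4 over IVA12, with a median of 0 over all genes of each species. Nothing is read from these shares, since the members were chosen with the values known. Restricted to genes that reached 1 FPKM in each human line, the median lay at 0.11, so that human ratios are to be read against that shift.

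**Figure D2:**
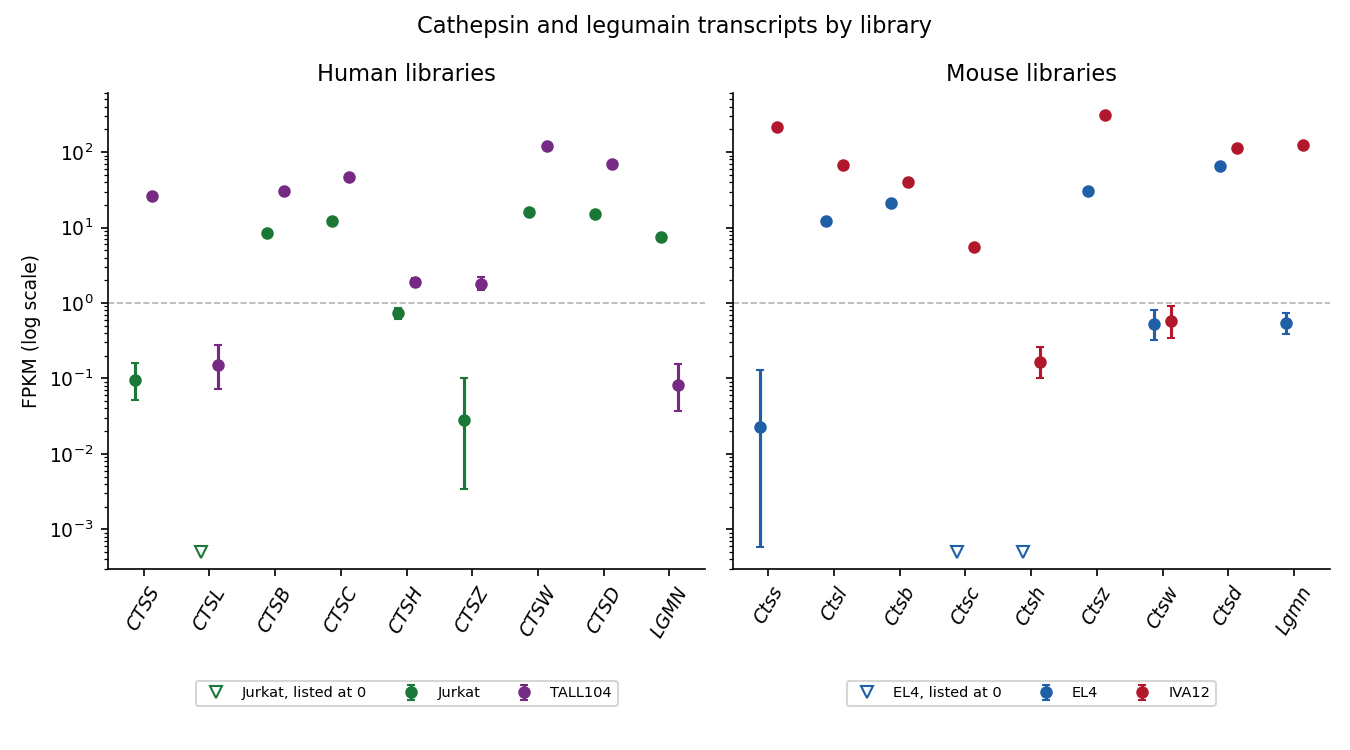
Level of each member in FPKM (log scale) in the human libraries (left) and the mouse libraries (right). Points are single libraries, bars are 95% counting intervals, open triangles at the bottom are genes listed at 0, and the dashed line marks 1 FPKM. CTSS lies at 0.0952 FPKM in Jurkat and 26.0 in TALL104, and Ctss at 0.0229 in EL4 and 217 in IVA12, whereas LGMN is the 1 member higher in Jurkat.

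Cathepsin S, an endopeptidase that stays active at neutral pH and is known for the last cut of the invariant chain, had the largest ratio in each pair among members with reads in both lines. CTSS (ENSG00000163131, hg19 chromosome 1, 150702555 to 150738433, minus strand) had 0.0952 FPKM in Jurkat (0.0520 to 0.160, 14 reads) and 26.0 FPKM in TALL104 (25.1 to 26.9, 3112 reads). The human ratio was 273-fold (162 to 499.5), or a log2 ratio of -4.62. Ctss (ENSMUSG00000038642, mm10 chromosome 3, 95526786 to 95556403, plus strand) had 0.0229 FPKM in EL4 (0.000580 to 0.128, 1 read) and 217 FPKM in IVA12 (212 to 222, 7463 reads). Cathepsin S transcript was therefore near the floor in Jurkat and EL4 and well above it in TALL104 and IVA12. The mouse log2 ratio was -7.74, and the ratio of reads was 9488-fold with an interval of 1702 to 374821, which a single read in EL4 leaves wide. Ctss stood at percentile 98.8 of the mouse genes detected in IVA12, and CTSS at percentile 90.5 of the human genes detected in TALL104.

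Cathepsin L, the broad endopeptidase that is closest to cathepsin S among the members, was well covered in the mouse lines and sparse in the human lines. The human and mouse proteins of CTSL shared 72.1% of residues, and human CTSL and CTSS shared 50.9% over 322 aligned residues. CTSL (ENSG00000135047, hg19 chromosome 9, 90338966 to 90346384, plus strand) had no reads listed in Jurkat and 10 in TALL104, where its level was 0.149 FPKM (0.0715 to 0.274). Ctsl (ENSMUSG00000021477, mm10 chromosome 13, 64359337 to 64370890, minus strand) had 12.4 FPKM in EL4 (11.5 to 13.3, 784 reads) and 67.0 FPKM in IVA12 (64.7 to 69.3, 3337 reads). The IVA12 level was 5.41-fold higher (5.0 to 5.86, log2 ratio -2.35). Gm49230, a processed pseudogene that overlaps Ctsl on the same strand, shared 4.67% of the windows of a read's length in Ctsl transcripts. These data hold no values for Gm49230.

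CTSV, known as cathepsin L2 or cathepsin V, is the human gene nearest to CTSL, with the shared promoter run printed above and 77.8% identity over 333 residues. It was not a member. CTSV had 8.14 FPKM in Jurkat (487 reads) and 0.0205 FPKM in TALL104 (1 read), a 397-fold ratio with an interval of 70.9 to 15708. Jurkat thus held CTSV where CTSL was listed at 0. No window of a read's length in CTSL or CTSV transcripts occurred in a transcript of another gene, so such reads can tell the 2 genes apart.

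Cathepsin B, an endopeptidase that also removes C-terminal dipeptides, was present in all 4 lines. CTSB (ENSG00000164733, hg19 chromosome 8, minus strand, 11700033 to 11727042) had 8.37 FPKM in Jurkat (8.02 to 8.73, 2166 reads) and 31.0 FPKM in TALL104 (30.2 to 31.8, 6535 reads). Ctsb (ENSMUSG00000021939, mm10 chromosome 14, 63122462 to 63145923, plus strand) had 21.3 FPKM in EL4 (20.6 to 22.0, 3243 reads) and 40.7 FPKM in IVA12 (39.6 to 41.9, 4881 reads). These are moderate levels with a difference of the same direction in each pair. The ratio was 3.70-fold (3.53 to 3.89) in the human pair and 1.91-fold (1.83 to 2.0) in the mouse pair, with log2 ratios of -1.77 and -0.91. Ctsb overlaps Fdft1 on the opposite strand, which stood at 10.7 FPKM in EL4 and 10.1 in IVA12.

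Cathepsin C, or dipeptidyl peptidase I, takes dipeptides from the N terminus and is the known activator of granzymes. CTSC (ENSG00000109861, hg19 chromosome 11, 87998237 to 88092852, minus strand) had 12.1 FPKM in Jurkat (11.8 to 12.5, 4820 reads) and 46.8 FPKM in TALL104 (46.0 to 47.5, 15138 reads). With a ratio of 3.85-fold (3.73 to 3.98, log2 ratio -1.86), it was the member with the most reads in TALL104. Ctsc (ENSMUSG00000030560, mm10 chromosome 7, 88278085 to 88310888, plus strand) was listed at 0 for EL4, and IVA12 had 5.57 FPKM (5.19 to 5.96, 818 reads). The mouse T line was thus the only library of the 4 with CTSC or Ctsc listed at 0. The log2 ratio on FPKM + 1 was -2.72.

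Cathepsin H, an aminopeptidase, was low throughout. CTSH (ENSG00000103811, hg19 chromosome 15, 79213400 to 79241916, minus strand) had 0.732 FPKM in Jurkat (0.619 to 0.859, 150 reads) and 1.92 FPKM in TALL104 (1.72 to 2.14, 321 reads), a 2.63-fold ratio (2.16 to 3.21, log2 ratio -0.75). Ctsh (ENSMUSG00000032359, mm10 chromosome 9, 90054152 to 90076089, plus strand) was listed at 0 for EL4, and IVA12 had 0.167 FPKM (0.101 to 0.261, 19 reads). TALL104 alone reached 1 FPKM.

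Cathepsin Z, a carboxypeptidase also called cathepsin X, was the highest member of any library. Ctsz (ENSMUSG00000016256, mm10 chromosome 2, 174427493 to 174439039, minus strand) had 30.7 FPKM in EL4 (29.1 to 32.3, 1420 reads) and 312 FPKM in IVA12 (306 to 318, 11364 reads). This was a 10.2-fold ratio (9.63 to 10.8, log2 ratio -3.31), and it placed Ctsz at percentile 99.2 of the detected genes of IVA12. CTSZ (ENSG00000101160, hg19 chromosome 20, 57560741 to 57583293, minus strand) had 0.0282 FPKM in Jurkat (0.00342 to 0.102, 2 reads) and 1.80 FPKM in TALL104 (1.47 to 2.18, 104 reads). The mouse lines were thus high and the human lines low. The human ratio was 63.8-fold with an interval of 17.2 to 534 (log2 ratio -1.45). CTSZ and Ctsz overlap NELFCD and Nelfcd on the opposite strand. NELFCD stood at 19.2 FPKM in Jurkat and 15.1 in TALL104, and Nelfcd at 15.1 in EL4 and 19.9 in IVA12. The library kit marked strand, but the strand setting of the counting was not given in the sources used here, and the part of such reads was not tested.

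Cathepsin W, also called lymphopain, is a papain-like protein known from cytotoxic T cells and natural killer cells. CTSW (ENSG00000172543, hg19 chromosome 11, 65647280 to 65651212, plus strand) had 16.2 FPKM in Jurkat (15.2 to 17.2, 967 reads) and 119.7 FPKM in TALL104 (117 to 123, 5832 reads). TALL104 was 7.40-fold higher (6.91 to 7.93, log2 ratio -2.81), and CTSW stood there at percentile 98.9 of detected genes. Ctsw (ENSMUSG00000024910, mm10 chromosome 19, 5465043 to 5468507, minus strand) had 0.530 FPKM in EL4 (0.328 to 0.810, 21 reads) and 0.578 FPKM in IVA12 (0.342 to 0.913, 18 reads). The mouse T line and the mouse B hybridoma both lay under 1 FPKM, with a ratio of 1.09 whose interval reached from 0.547 to 2.15. Of the 9 members, CTSW had the lowest identity between the human and mouse proteins, 69.0%. CTSW and Ctsw overlap FIBP and Fibp on the opposite strand, which stood at 21.4 and 14.5 FPKM in Jurkat and TALL104 and at 18.7 and 17.0 FPKM in EL4 and IVA12.

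Cathepsin D, the aspartic endopeptidase of the set, was the 1 member above 10 FPKM in all 4 lines. CTSD (ENSG00000117984, hg19 chromosome 11, 1773982 to 1785803, minus strand) had 15.2 FPKM in Jurkat (14.4 to 16.0, 1584 reads) and 69.9 FPKM in TALL104 (68.1 to 71.7, 5941 reads). Ctsd (ENSMUSG00000007891, mm10 chromosome 7, 142375911 to 142388038, minus strand) had 66.2 FPKM in EL4 (64.4 to 68.0, 5360 reads) and 114 FPKM in IVA12 (112 to 117, 7292 reads). The higher lines were again TALL104 and IVA12, and the ratios were 4.60-fold (4.35 to 4.87, log2 ratio -2.13) in the human pair and 1.73-fold (1.67 to 1.79, log2 ratio -0.78) in the mouse pair. CTSD shares 39.9% of its read-length windows with the overlapping gene ENSG00000250644, which was listed at 0 in both human libraries. Reads of CTSD from such windows may be lost or split, and its level is uncertain to that extent. Ctsd shares 33.3% with the overlapping gene Gm49369, for which these data hold no values.

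Legumain, or asparaginyl endopeptidase, cuts cathepsin precursors and antigens after asparagine. It was the only member past 1.5-fold toward Jurkat. LGMN (ENSG00000100600, hg19 chromosome 14, 93170152 to 93215024, minus strand) had 7.45 FPKM in Jurkat (7.0 to 7.92, 1010 reads) and 0.0814 FPKM in TALL104 (0.0372 to 0.155, 9 reads). Lgmn (ENSMUSG00000021190, mm10 chromosome 12, 102394084 to 102439813, minus strand) had 0.549 FPKM in EL4 (0.394 to 0.745, 41 reads) and 126 FPKM in IVA12 (123 to 129, 7403 reads). The transcript was thus at percentile 68.2 in Jurkat and 97.6 in IVA12, and at 17.5 and 29.4 in TALL104 and EL4. Jurkat was 91.5-fold above TALL104 (48.0 to 201, log2 ratio 2.97), whereas EL4 was 229.6-fold below IVA12 (169 to 320, log2 ratio -6.36). LGMN and CTSS thus lay in opposite directions in the human pair and in the same direction in the mouse pair. No read-length window of LGMN or Lgmn transcripts occurred in another gene.

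**Figure D3:**
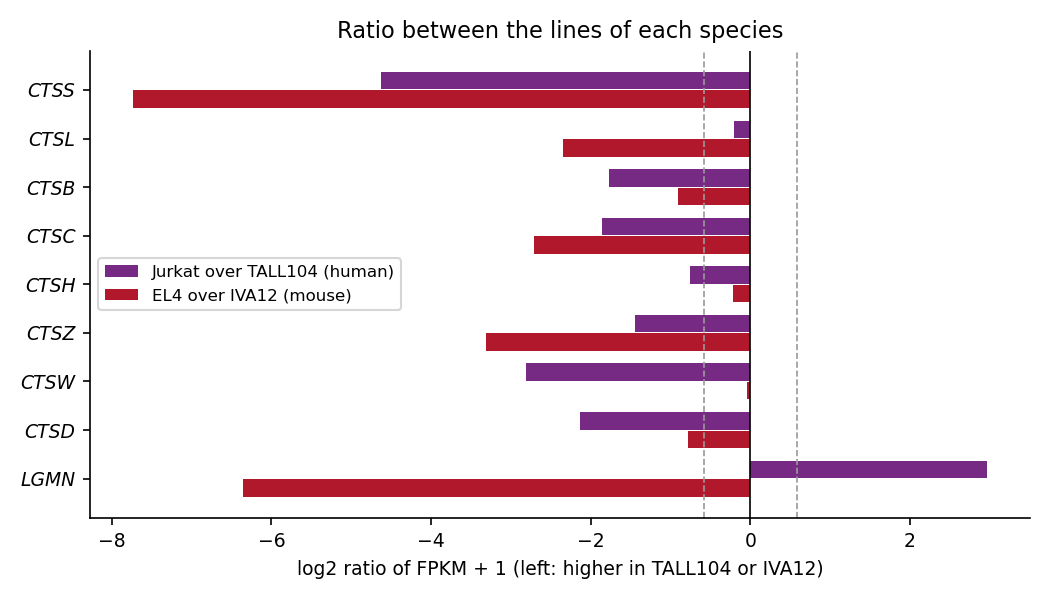
Log2 ratio of FPKM + 1 for each member, Jurkat over TALL104 and EL4 over IVA12, with values below 0 meaning a higher level in TALL104 or IVA12. Dashed lines mark 1.5-fold. LGMN lies at 2.97 for the human lines, Lgmn at -6.36 for the mouse lines, and the other members lie at or below 0 in both pairs.

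The genes most like 3 members over the 4 libraries were sought by Euclidean distance of log2(FPKM + 1), among 6961 genes of shared, unique symbol with at least 10 FPKM in any library. CTSS, LGMN and CTSZ were taken because their log2 ratios of FPKM + 1 were the farthest from 0 in either pair (-7.74, -6.36 and -3.31, each from EL4 over IVA12). For CTSS the nearest was SAMHD1 at a distance of 2.13, with 65.3 FPKM in TALL104 and 66.9 in IVA12, beside 0.0331 in Jurkat and 0.0476 in EL4. CD79B followed at 2.29 and CSF2RB at 3.01, and each of these 3 genes was low in Jurkat and EL4 and higher in TALL104 and IVA12. For LGMN the nearest were CKAP4 at 2.23, SLC41A1 at 2.26 and CTH at 2.39. SLC41A1 and CTH were higher in Jurkat than in TALL104 and higher in IVA12 than in EL4, with 11.2 and 43.8 FPKM for SLC41A1 in Jurkat and IVA12, whereas CKAP4 differed less between Jurkat (4.39 FPKM) and TALL104 (3.44 FPKM). For CTSZ they were SARNP at 2.23, IRF4 at 2.38 and PPAN at 2.49, and IRF4 was near 0 in both human lines with 9.73 FPKM in EL4 and 151 in IVA12.

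Cathepsins outside the set differed in both directions in the human pair. Of 7 other human cathepsins, 2 were higher in Jurkat, 2 in TALL104 and 3 in neither, with a median log2 ratio of 0.06. CTSG, a serine protease known from granules of myeloid cells, had 42.9 FPKM in Jurkat and 0.180 in TALL104, a 239-fold ratio (116 to 595), and with CTSV made up the genes higher in Jurkat. Of 14 other mouse cathepsins, 2 were higher in IVA12 and none in EL4, and 10 were listed at 0 in both lines. Of all mouse genes 11.2% passed toward IVA12 and 9.75% toward EL4. Among mouse genes with at least 1 FPKM in either line, 26.5% passed toward IVA12 and 23.8% toward EL4. Of all human genes, 11.4% passed toward TALL104 and 13.8% toward Jurkat. Of human genes with at least 1 FPKM in either line, 28.4% and 34.2% did. Counts of the lists below are to be read beside these shares. For lists mostly at 1 FPKM or more, the shares among such genes apply. The aspartic protease Ctse had 2.13 FPKM in EL4 and 105 in IVA12, 49.3-fold higher (43.1 to 56.7). Ctsa, the lysosomal carboxypeptidase known to protect neuraminidase and galactosidase, had 0.0198 FPKM in EL4 (3 reads) and 20.4 in IVA12, a ratio of 1031 with an interval of 352 to 5003.

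Of the cystatins, inhibitors of the papain-like cathepsins and in part of legumain, 3 reached 1 FPKM in either line of each pair. In the human pair 1 of 11 was higher in Jurkat, 2 in TALL104 and 8 in neither, beside 13.8% and 11.4% of all human genes. The median log2 ratio of 0 comes from genes listed at 0, which were 7 of the 11 in Jurkat and 8 in TALL104. CST7, cystatin F, which is targeted to the lysosome and acts on cathepsin C, had 10.8 FPKM in Jurkat and 256 in TALL104, 23.7-fold higher (21.3 to 26.4). CSTB, the cytosolic cystatin B, had 27.9 FPKM in Jurkat and 61.0 in TALL104, whereas the gene of secreted cystatin C, CST3, stood at 3.15 FPKM in Jurkat against 0.225 FPKM in TALL104. In the mouse pair 2 of 9 were higher in EL4, 1 in IVA12 and 6 in neither, beside 9.75% and 11.2% of all mouse genes. Listed at 0 were 6 of the 9 in EL4 and 5 in IVA12. EL4 had 48.1 FPKM of Cst7, and IVA12 0.0401 FPKM (1 read), a ratio of 1199 with an interval of 215 to 47407. Cystatin F was thus higher together with CTSC in TALL104, and among the mouse lines stood high in EL4, where Ctsc was listed at 0. Cstb had 84.6 FPKM in EL4 and 24.8 in IVA12, and Cst3 had 25.01 and 85.2 FPKM.

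The serine proteases that cathepsin C is known to activate were mostly higher in TALL104, as CTSC was, whereas in the mouse pair none passed 1.5-fold toward IVA12, where Ctsc was higher. Of 8 human genes 5 were higher in TALL104, 1 in Jurkat and 2 in neither, with a median log2 ratio of -2.36. GZMA, granzyme A, had 20.3 FPKM in Jurkat and 901 in TALL104, 44.5-fold higher (41.1 to 48.2), and CTSG was the gene higher in Jurkat. Of 7 mouse genes 2 were higher in EL4 and 5 in neither, and with a pseudocount of 0.1 in place of 1, Prtn3 (0.0180 FPKM in EL4, 0.183 in IVA12) was the 1 that passed toward IVA12. Gzma had 27.1 FPKM in EL4 and 0.270 in IVA12 (3 reads), and Gzmb, at 8.16 FPKM in EL4, was listed at 0 for IVA12. Granzymes are close paralogs, and reads shared between them may be split.

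The general lysosomal and sorting genes are given by list median. The member medians stand beside them as a description only, since the members were chosen with the values known. Most of the lysosomal and sorting genes reached 1 FPKM in either line. Of all such genes 28.4% passed toward TALL104, 34.2% toward Jurkat, 26.5% toward IVA12 and 23.8% toward EL4. Of 20 human lysosomal enzymes and membrane proteins found, 10 were higher in TALL104, 3 in Jurkat and 7 in neither, with a median log2 ratio of -0.53 beside -1.77 for the members. TPP1, tripeptidyl peptidase, had 12.4 FPKM in Jurkat and 66.7 in TALL104, and the lysosomal membrane protein gene CD63 had 12.4 and 47.9 FPKM. Of 21 mouse genes 8 were higher in IVA12, 2 in EL4 and 11 in neither, with a median of -0.15 beside -2.35 for the members. Gaa, acid alpha-glucosidase, had 12.8 FPKM in EL4 and 58.3 in IVA12, and Ppt1, palmitoyl-protein thioesterase, had 14.2 and 45.9 FPKM. Of the 9 genes of mannose 6-phosphate sorting, 4 were higher in TALL104 and 1 in Jurkat in the human pair (median -0.51), and 3 were higher in each line in the mouse pair (median -0.04). GNPTAB, a subunit gene of the enzyme that adds the tag, had 13.6 FPKM in Jurkat and 72.1 in TALL104, and GNPTG, its partner subunit, had 3.43 and 11.7 FPKM. Igf2r, the large mannose 6-phosphate receptor, had 37.5 FPKM in EL4 and 9.73 in IVA12, and Nagpa, the enzyme that uncovers the tag, had 4.25 and 10.03 FPKM.

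Of the 4 genes of MiT/TFE transcription factors, the known regulators of lysosomal genes through the letters shown for CTSD, 2 were higher in TALL104 and none in Jurkat. TFEB had 0.631 FPKM in Jurkat and 2.17 in TALL104, 3.43-fold higher (2.79 to 4.25), and TFE3 had 6.32 and 14.2 FPKM. In the mouse pair Tfeb went the other way, with 4.36 FPKM in EL4 and 2.52 in IVA12 (1.73-fold, 1.53 to 1.97), and Mitf, at 0.651 FPKM in IVA12, was listed at 0 for EL4.

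The class II pathway, in which cathepsin S and legumain are known to act, stood at 4.12 FPKM or less in every library apart from Cd74 in IVA12. Of 8 mouse genes 2 were higher in IVA12, 1 in EL4 and 5 in neither. Cd74, the invariant chain itself, had 0.154 FPKM in EL4 and 44.3 in IVA12, 287-fold higher (139 to 714). H2-Eb1, a class II beta chain, had 4.12 FPKM in EL4 and 0.969 in IVA12, so the invariant chain and the proteases that cut it stood high in IVA12 while this class II chain was near 1 FPKM. In the human pair 2 of 6 were higher in Jurkat and 4 in neither. These counts turn on the pseudocount of 1, since with 0.1 they became 4 in IVA12 and 2 in EL4, and 2 in each human line. HLA-DMB, which passes only with 0.1, had 0.0124 FPKM in Jurkat (2 reads) and 0.470 in TALL104 (62 reads), a 38.0-fold ratio (10.1 to 321). CD74 was listed at 0 for Jurkat, and TALL104 had 0.0776 FPKM (7 reads), where CTSS stood at 26.0 FPKM. HLA-DRB1, at 1.965 FPKM in Jurkat, was listed at 0 for TALL104, and HLA-DMA had 1.07 and 0.195 FPKM. Class II chains belong to a family of close copies, so their values are uncertain.

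**Figure D4:**
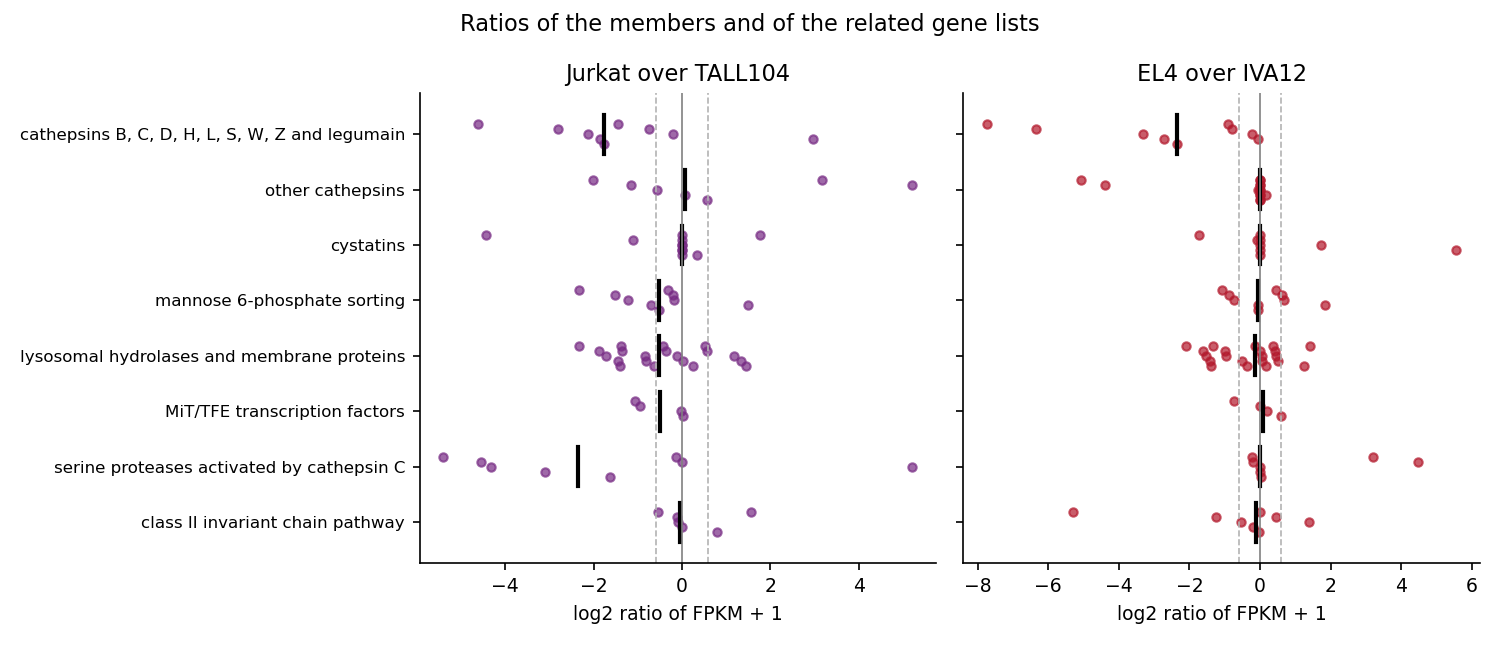
Log2 ratios of FPKM + 1 for the members and the related gene lists, Jurkat over TALL104 (left) and EL4 over IVA12 (right). Points are genes, black bars are list medians and dashed lines mark 1.5-fold. The member medians lie at -1.77 and -2.35, and those of the lysosomal list at -0.53 and -0.15. The members were chosen with these values known.

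Cathepsins are abundant in myeloid cells, so 10 myeloid markers were read in the same libraries. Their summed level was 2.57 FPKM for Jurkat and 12.0 for TALL104, and 4.09 in EL4 and 40.8 in IVA12, and these sums rested on few genes. In the human pair 2 of 10 were higher in TALL104 and 1 in Jurkat. ADGRE1 gave most of the TALL104 sum at 8.79 FPKM (0.264 in Jurkat), and ITGAM had 1.47 FPKM (0.0406 in Jurkat), while CSF1R and FCGR1A were listed at 0 in both human lines. In the mouse pair 2 of 10 were higher in IVA12, Cd68 with 22.5 FPKM (2.43 in EL4) and Spi1 with 18.0 FPKM (0.0115 in EL4), and 1 was higher in EL4. The defining macrophage genes Csf1r, Fcgr1 and Adgre1 were listed at 0 in both mouse lines, and Cd14 was listed at 0 in IVA12. The part of these markers in the cathepsin differences was not tested.

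T-cell and B-lineage markers also differed between the lines. In the mouse pair 7 of 7 T-cell markers were higher in EL4, with Cd3d at 197 FPKM (0.0299 in IVA12) and Cd3g at 176 FPKM (1.15 in IVA12), and 4 of 7 B-lineage markers were higher in IVA12. In the human pair 3 of 7 T-cell markers were higher in Jurkat, led by CD2 (86.0 and 15.6 FPKM) and CD5 (29.8 and 12.5 FPKM). Among the B-lineage markers, CD79B was higher in TALL104 (0.0415 and 4.8 FPKM) and MZB1 in Jurkat (47.7 and 8.88 FPKM). The part of lineage in the cathepsin differences was not tested, and line, lineage and culture medium cannot be told apart with 1 library per line.

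Reads of the other species bound the assignment of these genes. The 9 human genes together had 12 reads in EL4 and 51 in IVA12, and the 9 mouse genes had 12 reads in Jurkat and 9 in TALL104. The highest such level was 0.132 FPKM, CTSD in IVA12, where Ctsd stood at 114 FPKM. No read-length window of a member occurred in a transcript of the other species. Within the other libraries the highest such level was 0.0599 FPKM in Jurkat, 0.0490 in TALL104 and 0.0415 in EL4. Ctss in EL4 and CTSZ in Jurkat lie in the range that reads of the other species reached in the same library. CTSS in Jurkat (0.0952 FPKM) and LGMN in TALL104 (0.0814 FPKM) lie above that range, though under the 0.132 FPKM of IVA12.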

How the data were processed

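Messenger RNA of Jurkat, TALL104, EL4 and IVA12 was measured by bulk sequencing of 1 stranded library per line with paired reads. Per the study's methods and the submitters' processing notes, the authors aligned reads with STAR 2.5.1b to the joint human hg19 and mouse mm10 reference of Cell Ranger 1.2.0 and counted them with featureCounts 1.6.3. The authors deposited the values as FPKM. Gene lengths, the strand setting and the treatment of multiply aligned reads are not given in the sources used here. The table had 0 columns of other samples.

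Whole reads were solved from the FPKM steps at a relative tolerance of 1e-12 over lengths up to 300000 bases. In human 48.4% and in mouse 83.0% of genes came out at exactly their annotated exon length, and reads of the other genes may lack a common factor. The steps were tested on simulated data. The totals came to 34783047 (Jurkat), 28345951 (TALL104), 32149319 (EL4) and, lowest of all, 25286728 (IVA12) reads. Lines were compared within a species by log2 of the ratio of FPKM + 1 and a 1.5-fold threshold, with no test, since 1 library per line leaves no replicate. Intervals on ratios are exact binomial intervals of the reads at 95%, and a count of 0 allows up to 3 reads. Symbols and positions came from GENCODE (hg19 and mm10), matched by gene identifier. Proteins were translated from GENCODE transcripts and aligned, and promoters came from RefSeq. Python 3.11.15, NumPy 2.4.6, pandas 2.3.3, SciPy 1.17.1, matplotlib 3.10.9 and Biopython 1.88 were used.

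The members and the gene lists were chosen with earlier results of these data known. Named in the text are all members, in each pair the 2 genes of every list farthest from a log2 ratio of 0, CD74, CST7, CST3, CSTB, TFEB and CTSV, and the 3 genes nearest to each of the 3 members whose log2 ratio of FPKM + 1 was farthest from 0 in either pair. Genes that overlap a member, single markers used to check the labels, HLA-DMB and Prtn3 were named after their values were seen. Alternatives were a pseudocount of 0.1, 3 other scalings, a 2-fold threshold, a minimum of 1 FPKM in either line, and the pseudocount of 0.1 for the lists.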

Additional observations from a re-analysis of the deposited data

Results flagged for a closer look

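Reads of the other species on the members exceeded the 3 reads that a count of 0 allows for 7 pairs of gene and library. In the IVA12 library the human genes CTSB had 16 reads, CTSD 10, LGMN 7, CTSC 6 and CTSW 4. CTSD had 4 reads in the EL4 library, and the mouse gene Ctsb had 4 reads in the Jurkat library. There was no control library without either species, and the cause was not tested. Of all FPKM in IVA12, 0.175% lay on human genes, against 0.0379% in EL4, while 0.0474% in Jurkat and 0.0457% in TALL104 lay on mouse genes.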

How the results depend on the processing

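The summed member FPKM of TALL104 over Jurkat, 4.94, became 5.34 with libraries scaled by the median ratio and 5.32 with own-species totals taken without mitochondrially encoded genes. The mouse ratio of 6.72 lay between 6.62 and 6.69 under the 3 scalings. A sum ratio with a pseudocount was not run, since the sums carry none. Members higher in TALL104 numbered 6 with a 2-fold threshold and 8 with a pseudocount of 0.1, against 7, and members higher in IVA12 numbered 5 and 8, against 7. The counts toward Jurkat and EL4 were 1 and 0 in each of the 6 settings run. No member's log2 ratio changed sign. Scaling by the median ratio, and by own-species totals without mitochondrially encoded genes, each moved 4 of 18 log2 ratios by more than counting error. These were CTSB, CTSC, CTSD and CTSW, at -1.88, -1.97, -2.24 and -2.92 under the median ratio. The pseudocount of 0.1 moved 9 of 18 log2 ratios by more than counting error, to -7.06 for CTSS, -3.89 for CTSZ, 5.38 for LGMN, -10.79 for Ctss, -5.83 for Ctsc and -7.60 for Lgmn among them, and 8 of 40 list counts by over 1.5-fold, among them 3 of the class II pathway, 2 of the cystatins and 1 of the serine proteases. No paired analysis was possible because there was 1 library per line, and no library could be left out. Depth limits values of few reads, such as Ctss in EL4 (1 read) and CTSZ in Jurkat (2 reads).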
